A study of Mus musculus with 36 samples.

Results

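The genes described are the cytosolic ribosomal proteins, 84 of the 21761 genes in the deposited count tables, measured by RNA sequencing in mouse motor neurons that had been differentiated from embryonic stem cells. They were taken by symbol: every Rpl and Rps gene with a number, with or without the endings a, x or l, together with Rpsa and the stalk proteins Rplp0, Rplp1 and Rplp2, leaving out entries named as pseudogenes. This gave 32 small subunit and 52 large subunit members. The rule itself uses no measured value.

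The stem cells came from Hlxb9-GFP1Tmj transgenic mice, in which the mouse HB9 promoter drives eGFP, or eGFP with CD2, and the differentiated cells were sorted on a magnetic column by a CD2 antibody. The sorted cells then stood for 1 or 3 days in medium that astrocyte cultures of newborn pups had conditioned. There were 6 groups of 6 libraries: on day 3 and on day 1, medium of astrocytes overexpressing SOD1 with the G93A mutation (mSOD1), of astrocytes overexpressing wild-type SOD1 (wtSOD1), and of non-transgenic astrocytes (NTg). The motor neurons carried the same HB9 reporters in all 6 groups and no SOD1 transgene is named for them. All media received glucose, penicillin and streptomycin, GDNF, BDNF and CNTF and were filtered, and the labels allow spinal cord or cortex as the source of the astrocytes without saying which gave each medium. The labels number the libraries by experiment, 1 to 6, once in each group. Where the experiment is not a block in the fit, the p-values measure the spread between these experiments. Where it is a block, shifts common to an experiment are taken out and the p-values measure the spread that remains.

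A cytosolic ribosome holds a single copy of nearly every ribosomal protein, so cells make these proteins in near-equal amounts from messages that are among the most abundant they have. Most of these messages begin with a run of pyrimidines, the 5′ terminal oligopyrimidine (TOP) motif, through which mTOR signalling controls their translation. Neurons use ribosomes in the cell body, in dendrites and in axons, and several ribosomal proteins also act outside the ribosome, Rpl5 and Rpl11 as inhibitors of Mdm2, the ligase that degrades p53.

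The libraries held 4.39 to 88.9 M reads assigned to genes (median 13.3 M), of which 30970 to 556161 fell on the members. The smallest library was NTg day 1 replicate 6 and the largest wtSOD1 day 1 replicate 4. Both stood apart from the others, and where leaving out these 2 ended the call of a named member, or moved a count of calls, a median or a difference in share by over 1.5 times, that value is given. The motor neuron transcription factor Mnx1 (HB9) averaged 36.7 CPM (counts-per-million on library sizes scaled by TMM), 32.5 CPM and 34.6 CPM on day 3 in mSOD1, wtSOD1 and NTg medium, and 107, 107 and 112 CPM on day 1. The acetylcholine-synthesising enzyme Chat averaged 99.3, 77.9 and 81.8 CPM on day 3 and 218, 225 and 223 CPM on day 1, in the same order of media. The astrocyte marker Gfap averaged 1.02 CPM or less in every group, although 4 astrocyte markers together summed to 109 to 183 CPM on day 3 and to 11.9 to 21.3 CPM on day 1. In NTg day 1 replicate 6, 4 microglial markers summed to 27.3 CPM and 4 oligodendrocyte markers to 172 CPM, against at most 3.98 and 54.4 CPM in any other library. The cell division marker Mki67 averaged 241, 298 and 279 CPM on day 3 and the fibroblast collagen Col1a1 between 47.4 and 98.1 CPM over the 6 groups, so the cultures were not motor neurons alone. In RNA from whole cultures, fewer cells of a type and less RNA per cell cannot be told apart.

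Ribosomal protein genes have many processed pseudogenes, and reads from 1 copy can fit another. Of the 84 members, 29 had every 50-base stretch of their coding sequence also in another annotated gene of the reference transcripts (GRCm38), and 15 had under 50% of them shared. No shared stretch was found for 3, among them Rpl3l and Rpl39l. Altogether 81 members shared such stretches with at least 1 pseudogene, and Rpl7a with 121. The median member shared 90.8% of its coding 50-mers. Rpl26 had the same count as Gm15772 in all 36 libraries (89838 reads in each), and Rpl34 the same count as Rpl34-ps1 (5109 reads in each), so neither gene of such a pair can be told from the other. The sources used here do not say how reads with several matches were counted. Members with shared sequence are therefore uncertain as single genes, and results are also given for the 15 members under 50%, a limit chosen after the data were seen, which carried 24.7% of all ribosomal reads.

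Reads per coding length differed widely between members. Coding RPKM here is all reads deposited for a gene over its coding length alone, with reads and library totals summed over the libraries. Whether the deposited counts include reads on untranslated parts was not given. Such reads would raise the value most where the coding sequence is short. Over all 36 libraries the median member had 149 coding RPKM, 64 members lay between 50 and 300, 12 lay above and 8 below. Rpl41 stood at 3805 coding RPKM. Its coding sequence of 78 bases is the shortest of the members, so this value is not a measure of its level against the others. It was followed by the stalk protein Rplp1 with 442, by Rpl15 with 441 and by Rpl8, which lies near the peptidyl transferase centre, with 415. At the low end were the 3 paralogs Rpl3l (0.0581), known from striated muscle, and Rpl10l (0.249) and Rpl39l (1.70), both known from testis. Next came Rpl21 with 14.4 coding RPKM, all of whose coding 50-mers occur in other genes, 81 of them pseudogenes, then Rps29 with 23.2 and Rpl34 with 23.9. The share of coding 50-mers in other genes and the level per coding kilobase had a Spearman rho of -0.113 across the 84 members, which share the same libraries.

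Summed over the members, the reads counted on them made up 0.6254 to 0.958% of the reads assigned to genes (median 0.819%). As the counting of reads with several matches was not given, how fully this sum covers the members' messages is not known. On day 3 the lowest, median and highest share was 0.726, 0.824 and 0.853% in mSOD1 medium, 0.773, 0.860 and 0.907% in wtSOD1 medium, and 0.824, 0.887 and 0.931% in NTg medium. The mean was 0.801 ± 0.0594% in mSOD1, 0.852 ± 0.0533% in wtSOD1 and 0.882 ± 0.0461% in NTg medium (SD, n = 6 each). The groups overlapped, but within each experiment the mSOD1 library had the lower share than the NTg library in 6 of 6 pairs, by 0.0487 to 0.105 percentage points. The mean difference of mSOD1 from NTg medium was -0.0814 points, a ratio of 0.908. The share in mSOD1 medium was also below that in wtSOD1 medium in 5 of 6 pairs (mean -0.0513 points), and in wtSOD1 below NTg medium in 5 of 6 (mean -0.0302 points).

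On day 1 the order was not the same. The share averaged 0.806 ± 0.0996% in mSOD1 medium, 0.761 ± 0.0893% in wtSOD1 medium and 0.773 ± 0.0490% in NTg medium (SD, n = 6 each). It was higher in mSOD1 than in NTg medium in 4 of 6 pairs (mean 0.0328 points, or 0.0193 points without the 2 libraries that stood apart), higher in mSOD1 than in wtSOD1 medium in 4 of 6 (mean 0.0454 points, or 0.0183 without them), and higher in wtSOD1 than in NTg medium in 3 of 6 (mean -0.0126 points, or 0.000978 without them). Between days, the share was higher on day 3 than on day 1 in 5 of 6 experiments in NTg medium (mean difference 0.109 points), in 5 of 6 in wtSOD1 medium (0.0912 points) and in 2 of 6 in mSOD1 medium (-0.00551 points). Part of the spread was common to an experiment. On day 3, experiments 1 and 3 lay below their group mean in all 3 media, by 0.0668 and 0.0590 points on average, and on day 1 experiment 5 lay above it in all 3 by 0.0986 points while experiment 6 lay below it by 0.0871 points.

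**Figure D1:**
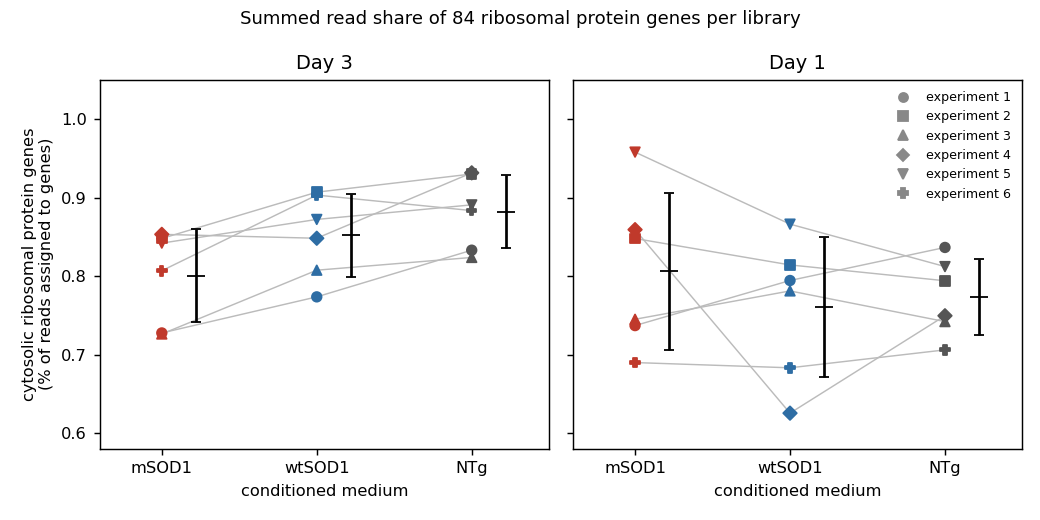
Summed share of the 84 ribosomal protein genes in each library (% of reads assigned to genes) by conditioned medium, day 3 on the left and day 1 on the right. Symbols mark experiments 1 to 6, grey lines join libraries of 1 experiment, and bars give mean ± SD; on day 3 all 6 lines run lower at mSOD1 than at NTg, although the groups overlap between 0.824 and 0.853%.

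Gene by gene, on day 3 the members lay slightly lower in mSOD1 than in NTg medium, and none passed the threshold of an adjusted p under 0.05 in edgeR's quasi-likelihood test. Of the 84 members 81 had enough reads to be tested, which left out Rpl3l, Rpl10l and Rpl39l. All 81 tested estimates were below 0, with a median log2 difference of -0.12 and a range of -0.24 to -0.01. Over all 15207 genes tested the median was -0.01 and 51.8% of estimates were below 0. The 32 small subunit members had a median of -0.13 and the 49 large subunit members one of -0.11. The 12 tested members with under 50% shared 50-mers had a median of -0.13 with all 12 below 0, and the other 69 a median of -0.12. Of the 81 members 0 passed, where 2.91% of all genes tested did, and 13 had an unadjusted p under 0.05. Counts of unadjusted p, here and below, stand without their share over all genes and are not read as results. DESeq2 called 1 member, as lower, where it called 188 of 12992 genes lower and 515 higher. Without the 2 libraries that stood apart edgeR called 1 member, as lower, where it called 178 of 15260 genes lower and 440 higher.

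**Figure D2:**
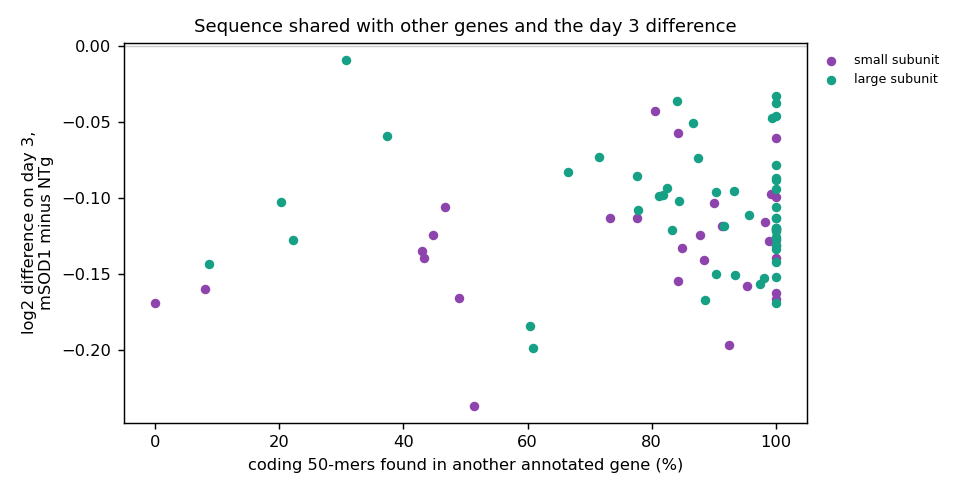
Log2 difference on day 3, mSOD1 minus NTg medium (y axis), of the 81 tested members against the share of their coding 50-mers found in another annotated gene (x axis, %); purple is the small and green the large subunit. Members under 50% and over 50% both lie below 0, with medians of -0.13 and -0.12.

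The count depended on how the shared experiments were treated. Between same-numbered libraries of day 3, 16 of 18 pairs had deviations from the group means that correlated over 0.1 across genes. With the experiment number as a block, 2 members passed as lower in mSOD1 medium, one of them Rps3a (adjusted p = 0.0404), where 3.48% of all genes were called lower. With a block for each experiment on each day, 18 members passed as lower, 11 of the small and 7 of the large subunit, and none as higher, where 7.23% of all genes were called lower and 10.9% higher. Besides Rps3a (adjusted p = 0.00527) they included Rps6, Rps7, Rps10, Rps12, Rps16, Rps20, Rps23, Rps24, Rps27l, Rpl5, Rpl6, Rpl7a, Rpl7l1, Rpl8, Rpl13 and Rplp0. Counted directly, 32 of 81 members (39.5%) were lower in mSOD1 than in NTg medium in 6 of 6 experiments, against 11.7% of all genes.

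Rplp0, the base of the stalk to which elongation factors bind, ran from 227 to 287 CPM (median 269) in mSOD1 medium, against 292 to 315 CPM (median 299.8) in NTg medium. The ranges did not overlap, as was the case for 2 of the 81 members, where 0.894% of all genes were lower without overlap. The log2 difference was -0.18 ± 0.07 (SE, adjusted p = 0.140). Rps3a, a protein at the mRNA exit side of the small subunit, had 114, 128 and 135 CPM as lowest, median and highest in mSOD1 medium, against 125, 142 and 149 CPM in NTg medium. These ranges overlapped, and the log2 difference was -0.14 (adjusted p = 0.147). In wtSOD1 medium Rplp0 averaged 296 ± 12.7 CPM (SD, n = 6), between its means in mSOD1 (266 ± 21.7 CPM) and NTg medium (302 ± 9.32 CPM).

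The make-up of the day 3 cultures differed somewhat between mSOD1 and NTg medium. The summed level of 6 motor neuron markers ran from 318 to 476 CPM in mSOD1 medium and from 277 to 441 CPM in NTg medium, with 6 of 6 estimates above 0 (median log2 difference 0.19). Of 4 general neuron markers, summed at 1881 to 2650 CPM in mSOD1 and 1505 to 2213 CPM in NTg medium, 2 rose: Stmn2 (log2 difference 0.32 ± 0.08, adjusted p = 0.0231) and Elavl4 (0.28 ± 0.07, adjusted p = 0.0233). Of 5 progenitor markers 0 estimates were above 0 (935 to 1122 CPM in mSOD1 and 1063 to 1228 CPM in NTg medium, median -0.20), and of 3 division markers likewise 0 (544 to 825 CPM and 653 to 980 CPM, median -0.21). Mesenchymal markers summed to 131 to 193 CPM in mSOD1 and 174 to 227 CPM in NTg medium, and Col1a2 fell by 0.49 on the log2 scale (adjusted p = 0.0305). Astrocyte markers summed to 109 to 158 CPM and 115 to 183 CPM. None of these markers was at 0 in either group. The part of this make-up in the members' differences was not tested.

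In the other 5 comparisons of media 0 members passed, in edgeR, in the blocked fit with the experiment number and in DESeq2 alike. For mSOD1 against NTg medium on day 1, where 0.421% of all genes passed, 69 of 81 estimates were above 0, against 48.6% of all genes (median log2 difference 0.06, or 0.03 without experiment 5 and 0.09 without experiment 1), and 0 had an unadjusted p under 0.05. Without the 2 libraries that stood apart 62 of 81 were above 0. The lowest p there belonged to Rpl15 (0.12 ± 0.06, SE, adjusted p = 0.759). For wtSOD1 against NTg medium, 0.0986% of all genes passed on day 3 and 0.0263% on day 1. The members had a median of -0.04 on day 3, with 74 of 81 estimates below 0 against 51.4% of all genes. On day 1 their median was -0.005, with 45 of 81 below 0 against 51.3% of all genes, and without the 2 libraries that stood apart it was 0.03 with 57 of 81 above 0. In both 0 members had an unadjusted p under 0.05, and the lowest-p members were Rpl36 on day 3 (-0.20 ± 0.11, SE, adjusted p = 1) and Rpl39, a short protein of the exit tunnel, on day 1 (-0.16 ± 0.09, SE, adjusted p = 0.952).

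For mSOD1 against wtSOD1 medium the sign of the median again differed between days. On day 3, 70 of 81 estimates were below 0, against 51.1% of all genes (median -0.08). No member passed the adjusted threshold, where 3.39% of all genes did. Before adjustment 4 members had a p under 0.05, a count that cannot be set against that share. Rps20 had the lowest p, with 89.3 to 106 CPM (median 105) in mSOD1 medium against 101 to 127 CPM (median 110.2) in wtSOD1 medium, overlapping, and a log2 difference of -0.16 ± 0.06 (SE, adjusted p = 0.152). With a block for each experiment on each day 4 members passed as lower, Rps20 (adjusted p = 0.00827), Rps3a and Rpl6 among them, where 6.08% of all genes did. On day 1, 72 of 81 estimates were above 0, against 50.3% of all genes (median 0.07). No member passed the adjusted threshold there, where 1.01% of all genes did, and 4 had an unadjusted p under 0.05. Without the 2 libraries that stood apart the day 1 median was 0.02 with 54 of 81 above 0, and without experiment 4 it was 0.007 with 46 of 81 above 0. Rpl39 led with 0.22 ± 0.09 (SE, adjusted p = 0.351).

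**Figure D3:**
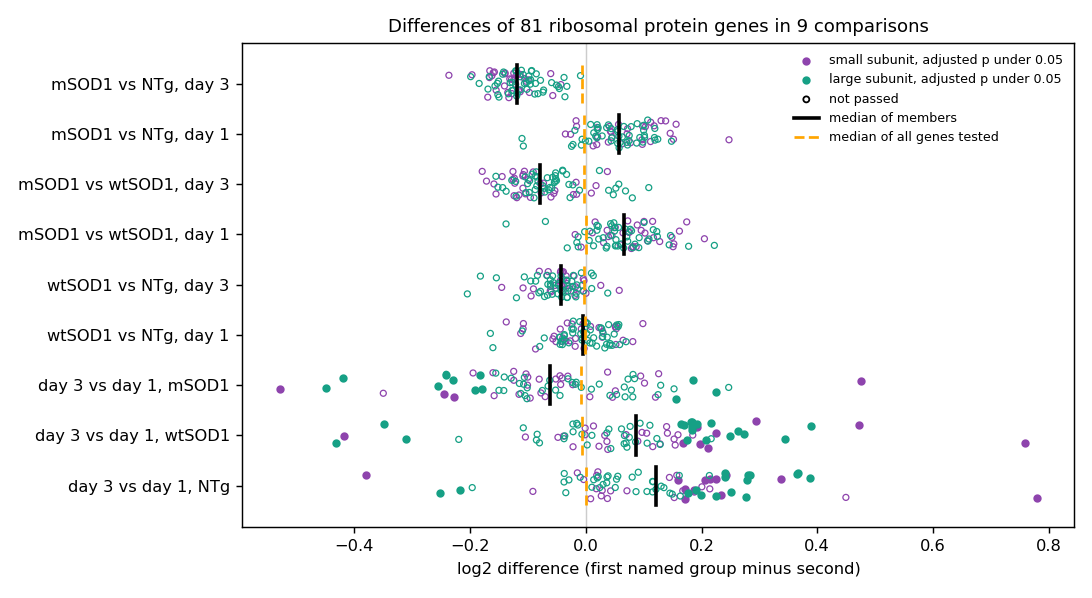
Log2 difference of each of the 81 tested members (x axis; first named group minus second) in 9 comparisons, purple for the small and green for the large subunit, filled where the adjusted p was under 0.05. Black bars mark the members' median and dashed bars the median of all 15207 genes tested; in mSOD1 against NTg medium on day 3 all 81 circles lie left of 0 and none is filled.

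More members passed between days than between media. Between day 3 and day 1, 25 members rose and 3 fell in NTg medium (median log2 difference 0.12), 23 rose and 4 fell in wtSOD1 medium (median 0.09), and 4 rose and 11 fell in mSOD1 medium (median -0.06). These shares are to be read against those of all genes: in NTg medium 30.8% of genes rose and 30.8% fell, in wtSOD1 medium 31.1% and 30.7%, and in mSOD1 medium 28.4% and 28%. Without the 2 libraries that stood apart, 13 rose and 6 fell in wtSOD1 medium (median 0.05), where 10 of the calls were lost, and 5 rose and 15 fell in mSOD1 medium. With total reads in place of TMM scaling the split was 36 higher and 4 lower in wtSOD1 (median 0.16) and 7 higher and 5 lower in mSOD1 medium. That scale also moved all 15207 genes upward. In wtSOD1 medium 5627 rose and 3699 fell (median 0.07), and in mSOD1 medium 4785 rose and 3535 fell (median 0.03). No member rose in 1 medium and fell in another, as 0.158% of all genes did. Ranges were apart, higher on day 3, for 9 members in NTg and 2 in wtSOD1 medium, where 19.8% and 19.9% of all genes were. In all, 30 of 81 rose in at least 1 medium, 12 fell in at least 1 and 39 passed in none, where 37.7% of all genes rose in at least 1, 37.7% fell in at least 1 and 24.8% passed in none. The counts rested partly on single experiments. In mSOD1 medium 9 members passed without experiment 3, and the split was 7 higher and 6 lower without experiment 5 (median -0.02) and 3 higher and 18 lower without experiment 6. In wtSOD1 medium 17, 15 and 17 members passed without experiments 2, 4 and 6 in turn, with a median of 0.04 without experiment 4.

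The comparisons of days in the 3 media use separate libraries, which share experiment numbers. Of the 81 members Rps27l, Rpl7l1, Rpl27a and Rpl23 rose in each medium, where 23.2% of all genes did, and Rps28, Rpl7a and Rpl28 fell in each, where 22.1% did. The DNA around the transcription start of these 7 is shown because a pyrimidine run at the start is the hallmark of this family. Each line runs from 30 bases before the RefSeq start to 20 bases from it on (GRCm38.p6), on the gene's strand, with the longest pyrimidine run that lies in the window in capitals.
Rps27l: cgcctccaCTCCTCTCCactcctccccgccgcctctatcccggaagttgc
Rpl7l1: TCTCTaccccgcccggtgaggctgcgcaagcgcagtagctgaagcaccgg
Rpl27a: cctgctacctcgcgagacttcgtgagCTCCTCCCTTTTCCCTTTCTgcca
Rpl23: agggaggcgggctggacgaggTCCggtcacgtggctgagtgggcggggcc
Rps28: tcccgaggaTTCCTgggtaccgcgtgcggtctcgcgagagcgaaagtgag
Rpl7a: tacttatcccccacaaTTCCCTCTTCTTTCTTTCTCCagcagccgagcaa
Rpl28: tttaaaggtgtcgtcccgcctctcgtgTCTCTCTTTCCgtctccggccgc
The windows lie at chr9:66946056-66946105 on the plus strand for Rps27l (the first of its listed starts), chr17:46782637-46782686 on the minus strand for Rpl7l1, chr7:109519165-109519214 on the plus strand for Rpl27a and chr11:97782420-97782469 on the minus strand for Rpl23. Those of the members that fell lie at chr17:33824543-33824592 on the minus strand for Rps28, chr2:26910777-26910826 on the plus strand for Rpl7a and chr7:4792935-4792984 on the plus strand for Rpl28. The longest run was 20 bases in Rpl27a, 9 in Rps27l, 5 in Rpl7l1 and 3 in Rpl23 among those that rose, and 21 bases in Rpl7a, 11 in Rpl28 and 5 in Rps28 among those that fell. In bases relative to the RefSeq start, these runs began at -4 in Rpl27a, -22 in Rps27l, -30 in Rpl7l1 and -9 in Rpl23. They began at -14 in Rpl7a, -3 in Rpl28 and -21 in Rps28. Only those of Rpl27a, Rpl7a and Rpl28 reached across the start, and the others ended before it. As the longest runs of a window, not as runs at the start, long and short ones thus occurred in both directions.

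Rps27l, a paralog of Rps27 known in human and mouse cells as a p53 target, had the largest rise of the tested members in each medium. In mSOD1 medium its lowest, median and highest values were 51.5, 64.1 and 73.1 CPM on day 3, against 39.2, 44.2 and 54.2 CPM on day 1. In NTg medium they were 61.5, 73.4 and 79.0 CPM on day 3, against 36.9, 41.7 and 44.1 CPM on day 1. The days overlapped slightly in mSOD1 medium and were apart in NTg medium and in wtSOD1 medium (56.4 to 74.8 CPM on day 3, 36.6 to 45.1 CPM on day 1). It was higher on day 3 in 6 of 6 experiments in each medium, with log2 differences of 0.48 ± 0.08 in mSOD1 (adjusted p = 7.38e-06), 0.76 ± 0.08 in wtSOD1 (adjusted p = 2.93e-10) and 0.78 ± 0.08 in NTg medium (SE, adjusted p = 2.34e-10). Of its coding 50-mers 49.0% occur in other genes.

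The other 3 members that rose everywhere belong to the large subunit or are related to it. Rpl7l1, a protein related in sequence to Rpl7, averaged 48.5 ± 4.12 CPM on day 3 and 42.6 ± 3.24 CPM on day 1 in mSOD1 medium (SD, n = 6 each), and 53 ± 2.48 CPM and 40.3 ± 2.4 CPM in NTg medium, where its ranges were apart. Its log2 differences were 0.18 ± 0.06 (adjusted p = 0.00955) in mSOD1, 0.27 ± 0.06 (adjusted p = 0.000136) in wtSOD1 and 0.39 ± 0.06 (adjusted p = 6.91e-07) in NTg medium. The call in mSOD1 medium was lost without experiment 4 or 6 (adjusted p = 0.0657 and 0.0598). Rpl27a, a large subunit protein, averaged 126 ± 9.35 CPM on day 3 and 98 ± 5.63 CPM on day 1 in NTg medium, and rose by 0.37 ± 0.07 on the log2 scale there (adjusted p = 8.30e-06), by 0.39 ± 0.07 in wtSOD1 (adjusted p = 2.67e-06) and by 0.23 ± 0.07 in mSOD1 medium (adjusted p = 0.00384). Rpl23, which can also bind Mdm2, rose by 0.16 ± 0.05 in mSOD1 (adjusted p = 0.0122), 0.17 ± 0.05 in wtSOD1 (adjusted p = 0.00509) and 0.20 ± 0.05 in NTg medium (adjusted p = 0.00137). Its calls were lost without experiment 3 in mSOD1 medium (adjusted p = 0.0811) and without experiment 2 in wtSOD1 medium (adjusted p = 0.0725).

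Among the members that fell, Rpl28 of the large subunit had ranges that were apart in mSOD1 medium, as did 2 members in all, where 14.6% of all genes were lower without overlap. It had 23.0, 25.7 and 29.4 CPM (lowest, median and highest) on day 3, against 32.4, 34.8 and 36.9 CPM on day 1. It fell by 0.42 on the log2 scale in mSOD1 (SE 0.08, adjusted p = 1.49e-05), by 0.35 in wtSOD1 (SE 0.08, adjusted p = 0.000121) and by 0.22 in NTg medium (SE 0.08, adjusted p = 0.0130), the last lost without experiment 2 or 3 (adjusted p = 0.115 and 0.104) and with total reads (adjusted p = 0.0689). Rpl7a averaged 54.2 ± 7.77 CPM on day 3 and 74.0 ± 6.41 CPM on day 1 in mSOD1 medium (SD, n = 6 each). Its log2 differences were -0.45 ± 0.09 (adjusted p = 2.54e-05) in mSOD1, -0.31 ± 0.08 (adjusted p = 0.00148) in wtSOD1 and -0.25 ± 0.08 (adjusted p = 0.00912) in NTg medium, the last at an adjusted p of 0.0547 with total reads as the scale. Rps28, a small subunit protein with all coding 50-mers shared, averaged 15.0 ± 3.73 CPM and 21.8 ± 2.89 CPM on day 3 and day 1 in mSOD1 medium, and fell by 0.53 there (SE 0.14, adjusted p = 0.00201), by 0.42 in wtSOD1 (SE 0.14, adjusted p = 0.00975) and by 0.38 in NTg medium (SE 0.14, adjusted p = 0.0181). Leaving out experiment 2, 3 or 5 ended the call in NTg medium (adjusted p = 0.0763, 0.0993 and 0.0687), and leaving out experiment 2 that in wtSOD1 medium (adjusted p = 0.0527).

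**Figure D4:**
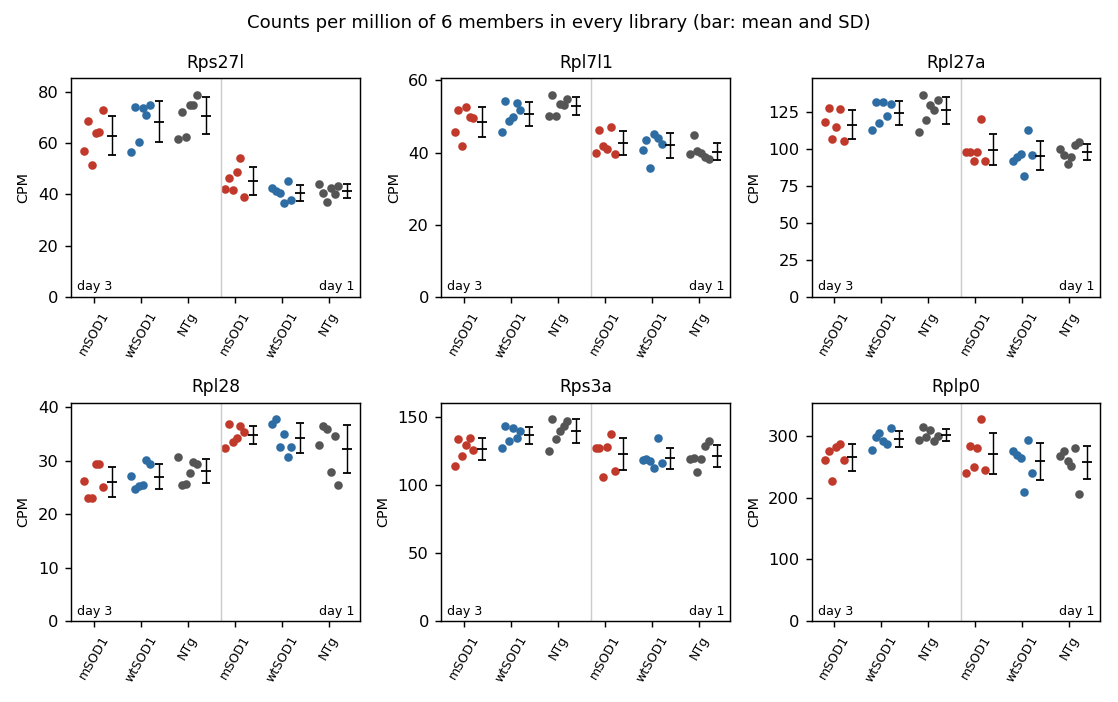
CPM of 6 members in each library (y axis from 0), day 3 left of the line and day 1 right of it, by conditioned medium; points are libraries and bars mean ± SD. Rps27l, Rpl7l1 and Rpl27a lie higher on day 3 and Rpl28 lower in every medium, while Rplp0 on day 3 lies lower in mSOD1 (227 to 287 CPM) than in NTg medium (292 to 315 CPM) and Rps3a overlaps (114 to 135 and 125 to 149 CPM).

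In mSOD1 medium 8 further members fell between days that passed in neither other medium. Of all genes 28% fell in mSOD1 medium, and the share that fell only there was not computed. Of the 8, 0 passed the test of the interaction between medium and day. With a block for each experiment on each day 3 of the 8 passed the interaction of mSOD1 against NTg medium, where 3.73% of all genes passed as lower. Among them were Rpl38 (-0.25, adjusted p = 0.0260) and Rpl35 (-0.29, adjusted p = 0.0444). In that of mSOD1 against wtSOD1 medium 1 passed, where 3.45% of all genes passed as lower. The 8 were picked by their fall in mSOD1 medium, which enters both interactions, so these counts are not independent of the choice. Rps26, which touches the mRNA as it leaves the small subunit, fell by 0.25 (SE 0.07, adjusted p = 0.00306), and the large subunit member Rpl37 by 0.26 (SE 0.11, adjusted p = 0.0405). The call of Rpl37 was lost without any one of experiments 1 to 5 (adjusted p = 0.0579 to 0.104) and in 8 of 14 alternatives in all. Rpl8, Rpl13, Rpl35 and Rpl38 fell as well, and their log2 differences lay between -0.23 and -0.18. The call of Rpl35 was also lost in 8 of 14, among them total reads (adjusted p = 0.132) and any one of experiments 1 to 5 left out (adjusted p = 0.0609 to 0.127). Rpl13 lost its call without experiment 3 or 5 (adjusted p = 0.0904 and 0.164) and with total reads (adjusted p = 0.1185), and Rpl8 without experiment 5 (adjusted p = 0.0612) and with total reads (adjusted p = 0.0743).

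In NTg and wtSOD1 medium most calls ran the other way. Rps24, a small subunit protein mutated in Diamond-Blackfan anaemia in humans, averaged 152 ± 10.3 CPM on day 3 and 120.3 ± 5.06 CPM on day 1 in NTg medium (SD, n = 6 each) and rose by 0.34 ± 0.06 on the log2 scale (adjusted p = 3.34e-06), and by 0.22 ± 0.06 in wtSOD1 medium (adjusted p = 0.000815). Rpl10a rose by 0.28 ± 0.06 in NTg (adjusted p = 7.12e-05) and 0.25 ± 0.06 in wtSOD1 medium (adjusted p = 0.000349), and in mSOD1 medium its estimate was 0.12 ± 0.06 (adjusted p = 0.0706). Rpl3, which reaches towards the peptidyl transferase centre, rose by 0.28 ± 0.07 in NTg (adjusted p = 0.000405) and 0.18 ± 0.07 in wtSOD1 medium (adjusted p = 0.0156). The call in wtSOD1 medium was lost without experiment 4 or 6 (adjusted p = 0.10 and 0.0645) and without the 2 libraries that stood apart (adjusted p = 0.0599). Rpl36 fell by 0.43 on the log2 scale in wtSOD1 medium (SE 0.10, adjusted p = 0.000502), at a mean of 12.9 ± 1.34 CPM on day 3 and 17.3 ± 2.01 CPM on day 1. Rps14 had the largest rise there after Rps27l, 0.47 ± 0.20 (adjusted p = 0.0458), with wide ranges of 63.1 to 91.8 CPM on day 3 and 31.5 to 74.9 CPM on day 1, and the call was lost in DESeq2 (adjusted p = 0.0616) without experiments 2, 4 or 6 (adjusted p = 0.105, 0.186 and 0.147), without the 2 libraries that stood apart (adjusted p = 0.153) and with no filter on low counts (adjusted p = 0.0582).

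**Figure D5:**
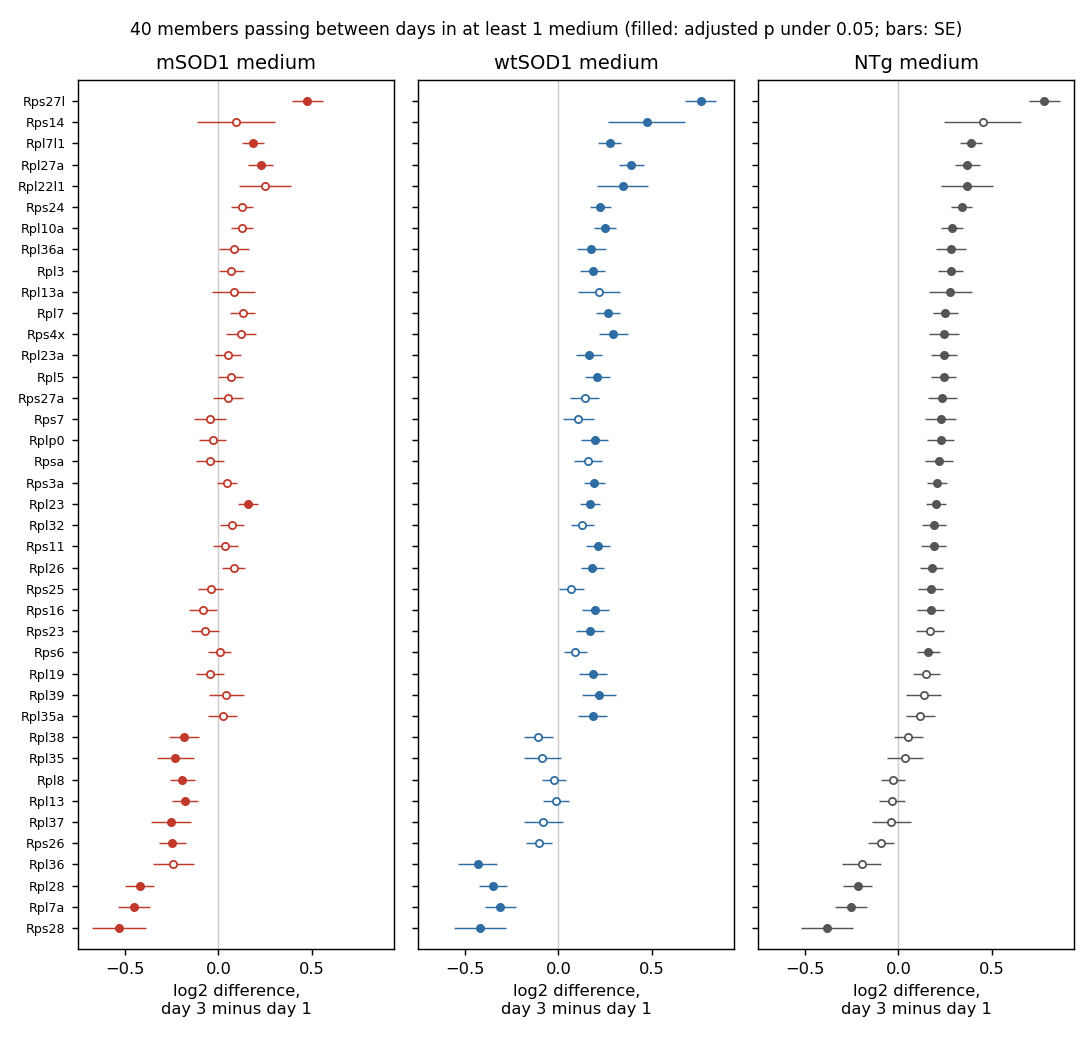
Log2 difference between day 3 and day 1 (x axis, day 3 minus day 1, bars SE) of 40 of the 42 members that passed in at least 1 medium, ordered by the value in NTg medium; filled circles have an adjusted p under 0.05. Rps27l stands highest in all 3 panels (0.48, 0.76 and 0.78) and Rps28 lowest in mSOD1 and NTg medium (-0.53 and -0.38). Most members filled above 0 in NTg medium are open in mSOD1 medium, and some of them, such as Rps6, Rps7 and Rpsa, are open in wtSOD1 medium too.

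The cultures themselves differed strongly between days. By medium, 28.4 to 31.1% of all genes rose and 28 to 30.8% fell. In each medium all 6 motor neuron markers and all 4 general neuron markers fell. Of the other markers 3 of 5 progenitor, 3 of 3 division, 3 of 4 astrocyte and 3 of 3 mesenchymal ones rose. In NTg medium the median log2 differences of these lists were -1.47, -0.78, 1.01, 1.00, 2.57 and 1.87. Their part in the members' differences was not tested.

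Whether the day difference itself depended on the medium was tested with the interaction of medium and day. For mSOD1 against NTg medium all 81 estimates were below 0, against 50.3% of all genes (median -0.17), 0 members passed where 0.23% of all genes did, and 16 had an unadjusted p under 0.05. Without the 2 libraries that stood apart 1 estimate was above 0. DESeq2 and the block with the experiment number also called 0. Rps10, a small subunit protein, was among those with the lowest p (-0.35 ± 0.13, adjusted p = 0.218). With a block for each experiment on each day 18 members passed as lower, 10 small and 8 large subunit, among them Rps27l (-0.32, adjusted p = 0.00303) and Rps10 (-0.37, adjusted p = 0.00333), where 3.73% of all genes passed as lower. For mSOD1 against wtSOD1 medium 76 of 81 estimates were below 0, against 50.6% of all genes (median -0.14), 0 passed where 0.592% of all genes did, and 8 had an unadjusted p under 0.05. The median was -0.09 without the 2 libraries that stood apart and -0.08 without experiment 4. Rps16, whose tail reaches the tRNA in the peptidyl site, had the lowest p (-0.28 ± 0.11, adjusted p = 0.191), and with a block for each experiment on each day 6 members passed as lower, where 3.45% of all genes did. For wtSOD1 against NTg medium the median was -0.04 (-0.07 without the 2 libraries that stood apart), 0 members passed where 0.0197% of all genes did, and 0 had an unadjusted p under 0.05. The 3 interactions share libraries, as do the media comparisons of 1 day, and are not independent of each other.

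Several small subunit proteins have known side roles or disease links. Rps6, the target of S6 kinase downstream of mTOR, ran from 245 to 299 CPM (median 272) in mSOD1, 256 to 297 CPM (median 293) in wtSOD1 and 253 to 314 CPM (median 303) in NTg medium on day 3. The groups overlapped, and mSOD1 against NTg medium gave -0.13 ± 0.06 (adjusted p = 0.236, or 0.0182 with a block for each experiment on each day). Rpsa, also known as a laminin receptor, ran from 212 to 274 CPM (median 254) in mSOD1 and from 259 to 289 CPM (median 273) in NTg medium on day 3, a log2 difference of -0.13 ± 0.08 (adjusted p = 0.364). It rose between days in NTg medium by 0.22 ± 0.08 (adjusted p = 0.0142), a call lost without experiment 6 (adjusted p = 0.0785). Rps3, which also takes part in DNA repair, had the wide ranges of 186 to 283 CPM in mSOD1 and 217 to 284 CPM in NTg medium on day 3 and passed in no comparison. Rps19, the protein most often mutated in Diamond-Blackfan anaemia in humans, likewise passed in none and stood at 47.5 ± 4.51 CPM in mSOD1 and 49.0 ± 3.7 CPM in NTg medium on day 3. The X-linked Rps4x rose between days in wtSOD1 (0.29 ± 0.08, adjusted p = 0.00125) and NTg medium (0.24 ± 0.08, adjusted p = 0.00716). Rps27a, made as a fusion with ubiquitin, rose in NTg medium (0.23 ± 0.08, adjusted p = 0.00928), with 95.8 to 119 CPM on day 3 against 82.2 to 105 CPM on day 1.

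Of the stalk, Rplp0 rose between days in NTg (0.22 ± 0.07, adjusted p = 0.00672) and wtSOD1 medium (0.19 ± 0.07, adjusted p = 0.0186, lost without experiment 4 or 6 at 0.111 and 0.0590), with -0.03 ± 0.07 in mSOD1 medium (adjusted p = 0.739). Rplp1 and Rplp2, the acidic proteins that dimerise on it, passed in no comparison. Rplp1 had 122 to 161 CPM (median 146) in mSOD1 and 144 to 189 CPM (median 165) in NTg medium on day 3, a difference of -0.20 ± 0.11 (adjusted p = 0.329). Rplp2 averaged 26.4 ± 2.25 CPM and 28.1 ± 1.81 CPM in the same groups (-0.08 ± 0.07, adjusted p = 0.560), far fewer reads than the other stalk genes.

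Of the pair that carries the 5S RNA and binds Mdm2, Rpl5 rose between days in NTg (0.24 ± 0.07, adjusted p = 0.00220) and wtSOD1 medium (0.21 ± 0.07, adjusted p = 0.00716), while its partner Rpl11 passed in no medium (0.09 ± 0.10 in NTg, adjusted p = 0.448). The difference between the genes was not tested. Rpl10, which joins the large subunit late and allows it to meet the small one, was among the steadiest, with 121 to 147 CPM in mSOD1 and 131 to 153 CPM in NTg medium on day 3 and no call anywhere. Rpl13a, which in human cells leaves the ribosome to silence inflammatory messages, rose between days in NTg medium (0.28 ± 0.11, adjusted p = 0.0346), a call lost without any one of experiments 2, 3, 4 and 6 (adjusted p = 0.0580 to 0.105) and without the 2 libraries that stood apart (adjusted p = 0.0745). Rpl38, known in mice for the translation of Hox messages, fell between days in mSOD1 medium by 0.18 (SE 0.08, adjusted p = 0.0475), at 28.4 to 36.6 CPM on day 3 against 34.1 to 45.4 CPM on day 1. DESeq2 gave it an adjusted p of 0.0564, without experiments 1, 3 or 5 it was 0.117, 0.287 and 0.157, and the call was lost in 8 of 14 alternatives in all.

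Of 7 paralogs in the family, 4 had enough reads for a ratio to their partners. How reads with several matches were counted was not given, so a ratio is uncertain where sequence is shared. Shared coding 50-mers made up 84.4% in Rpl22l1, 77.6% in Rpl7 and 100% in Rpl36a and Rpl36al. Rps27l had more reads than Rps27 in every group: the ratio averaged 3.84 ± 0.380 in mSOD1, 3.99 ± 0.406 in wtSOD1 and 4.03 ± 0.630 in NTg medium on day 3, and 2.71 ± 0.254, 2.62 ± 0.289 and 2.75 ± 0.333 on day 1 (SD, n = 6 each). Rps27 itself did not pass between days in any medium (0.21 ± 0.11 in NTg, adjusted p = 0.0848), and all of its coding 50-mers are shared with other genes. Rpl22l1, the paralog of Rpl22, rose between days in NTg (0.37 ± 0.14, adjusted p = 0.0198) and wtSOD1 medium (0.34 ± 0.14, adjusted p = 0.0277), and had 0.159, 0.156 and 0.170 times the reads of Rpl22 on day 3 and 0.129, 0.118 and 0.133 times on day 1 in mSOD1, wtSOD1 and NTg medium (SD 0.0146 to 0.0295). The call in NTg medium was lost without experiment 4 or 6 (adjusted p = 0.113 and 0.0642), and that in wtSOD1 medium without experiment 1 or 4 (adjusted p = 0.0956 and 0.152) and without the 2 libraries that stood apart (adjusted p = 0.10). Rpl22, for its part, passed in no comparison and had the smallest difference between mSOD1 and NTg medium on day 3 (-0.01 ± 0.04, adjusted p = 0.941). Rpl36al had 3.07, 2.92 and 2.91 times the reads of Rpl36a on day 3 and 3.49, 3.35 and 3.38 times on day 1 (SD 0.143 to 0.361). Its partner Rpl36a rose between days in NTg medium (0.28 ± 0.08, adjusted p = 0.00207), with 23.3 to 27.9 CPM on day 3 against 18.6 to 23.0 CPM on day 1, where Rpl36al had 0.06 ± 0.06 (adjusted p = 0.459). The difference between these genes was not tested, and with all their coding 50-mers shared it is uncertain. Rpl7l1 had 0.303, 0.306 and 0.313 times the reads of Rpl7 on day 3 and 0.291, 0.304 and 0.285 times on day 1 (SD 0.0175 to 0.0437), and Rpl7 rose as well in NTg (0.25 ± 0.07, adjusted p = 0.00104) and wtSOD1 medium (0.26 ± 0.06, adjusted p = 0.000567). The remaining paralogs Rpl3l, Rpl10l and Rpl39l had 43, 97 and 160 reads in all 36 libraries together, too few to test.

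RefSeq promoters (GRCm38.p6, 300 bases from 250 before to 50 after a start) were matched for 64 of the 84 members. A run of 8 or more C or T letters on the gene's strand within 50 bases of a start was present in 53 of the 64 (82.8%), and in 39.3% of 27025 genes with an entry. CTTTCC, a short stretch of pyrimidines alone, was found on the same strand and anywhere in the same window in 20 members (31.2%) and in 5.43% of all genes. Such a match can lie inside a longer run and need not lie at the start, so it is no count of TOP motifs. CCGGAAG, the letters bound by ETS factors such as GABP, was found on either strand of the 300 bases in 26 members (40.6%) and in 9.93% of all genes. Among the windows of the 7 members that passed in all media, that of Rpl28 holds CTTTCC at the end of its run and that of Rps27l holds CCGGAAG near its end. A letter match is a description of the window and not a site.

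Within groups the members varied together. Over the deviations of the 36 libraries from their group means, the mean pairwise Pearson r among the 81 tested members was 0.495 and 96.8% of pairs were above 0. It was 0.548 within the small subunit, 0.464 within the large and 0.501 between them. All points share the depth and composition of a library, so this is a description. Rpl3 (mean r 0.663 with the others), Rpl32 (0.655) and Rpl19 (0.653) followed the family most closely, and Rpl28 (0.140), Rps18 (0.150), Rpl36 (0.182) and Rpl22l1 (0.209) least. The members' median SD within groups was 0.140 on the log2 scale, against 0.146 for all genes tested.

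Other lists of the translation machinery had medians between -0.09 and -0.05 for mSOD1 against NTg medium on day 3. The 75 mitochondrial ribosomal proteins had a median of -0.06 with 11 estimates above 0, and 0 passed, Mrpl2 having the lowest p (-0.20 ± 0.06, adjusted p = 0.0773). Of 21 other messages with a TOP motif 1 estimate was above 0 (median -0.09) and 0 passed; the growth-linked Tpt1 had -0.19 ± 0.07 (adjusted p = 0.150). The medians were -0.06 for 45 initiation factors, -0.06 for 52 ribosome assembly genes and -0.05 for 13 elongation factors and related genes, again with 0 called. Of 3 ribosomal proteins with other names, the scaffold Gnb2l1 (RACK1) had -0.16 ± 0.08 (adjusted p = 0.255). The differences between these lists and the members were not tested.

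Between days, the same lists split as follows. Of all genes 28.4% rose and 28% fell in mSOD1 medium, 31.1% and 30.7% in wtSOD1 and 30.8% and 30.8% in NTg medium. Of the mitochondrial ribosomal proteins 6 rose and 22 fell in mSOD1, 13 and 13 in wtSOD1 and 13 and 10 in NTg medium. Of the other TOP messages 2 rose and 6 fell in mSOD1, 8 and 2 in wtSOD1 and 9 and 3 in NTg medium. Gnb2l1 rose in NTg medium (0.26 ± 0.08, adjusted p = 0.00576). Of 7 p53 target genes, 5 rose in mSOD1, 7 in wtSOD1 and 6 in NTg medium. This list includes Rps27l, which is itself counted as a rise in each medium. Among them the cyclin-dependent kinase inhibitor Cdkn1a had log2 differences of 0.97, 1.17 and 1.23 and the p53 ligase Mdm2 0.81, 0.80 and 0.76 in mSOD1, wtSOD1 and NTg medium.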

How the data were processed

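RNA was sequenced from 36 libraries, 6 in each of 6 groups. DESeq, the aligner TopHat 1.3.3 and build mm9 are listed in the submitters' processing notes, without their settings. The counting program, its annotation, the strand setting and the handling of multiply matching reads were not given in the sources used here. The deposited files give, per the file headers, read counts per gene and a variance-stabilised value on a scale like log2. From the deposited counts, edgeR 4.0.16 (R 4.3.3) was run with TMM scaling, a filter by expression (15207 of 21761 genes, 81 of 84 members), 6 group means, 30 residual degrees of freedom, a robust quasi-likelihood test and Benjamini-Hochberg adjustment over all genes, threshold 0.05. CPM uses TMM-scaled library sizes, SE comes from the F statistic and log values use a prior count of 2. The alternatives were other scalings, no filter, experiment blocks, DESeq2 1.42.0, limma 3.58.1 on the deposited log2-like values, and leaving out libraries. The labels' experiment numbers link libraries, and deviations of same-numbered libraries had a mean correlation of 0.240 for day 3, with 16 of 18 above 0.1, against 0.132 for day 1, with 11 of 18. The fit was first tested on simulated data. Copies were found with 50-mers of coding sequence in the reference transcripts. Named are, for each comparison, up to 5 called members per direction by size or else the lowest-p members, members with well-known roles and all paralogs with their partners. The members and lists were chosen with earlier results of these data known. The time zero samples were not analysed here. Some members and listed genes enter the counts and medians but are not reported here singly.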

Additional observations from a re-analysis of the deposited data

Results flagged for a closer look

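In 8 of 198 sets of 6 libraries checked (32 members and the summed share in 6 groups) 1 library stood away from the other 5 by more than the 95% limit for such a gap; chance gives about 1 in 20. In NTg medium on day 1, replicate 2 had 44.9 CPM of Rpl7l1 (the others 38.2 to 40.4) and replicate 6, the smallest library, 87.9 CPM of Rpl23 (the others 74.5 to 78.9). In mSOD1 medium, replicate 5 of day 1 had 120.5 CPM of Rpl27a (the others 91.6 to 98.1) and replicate 6 of day 3 had 15.8 CPM of Rpl36 (the others 12.5 to 13.4). In wtSOD1 medium on day 1, replicate 5 had 134 CPM of Rps3a (the others 112 to 119), 166 CPM of Rpl5 (the others 126 to 139.7) and 89.3 CPM of Rpl36al (the others 64.6 to 72.7). Replicate 1 of wtSOD1 medium on day 3 had 256 CPM of Rps6 (the others 288 to 297).

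Of the pseudogene entries left out of the family, Rps19-ps3 had 12480 reads, 68 to 1682 in a library, and Rpl34-ps1 5109 reads, 32 to 567 in a library, the same in every library as Rpl34. Whether these reads come from the pseudogene or the parent gene was not tested.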

How the results depend on the processing

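Members called in mSOD1 against NTg medium on day 3 numbered 0 in the reported fit, 2 with the replicate block, 18 with the replicate block within each day, 1 without NTg day 1 replicate 6 and wtSOD1 day 1 replicate 4, and 1 with DESeq2. All of these calls were lower. In the same order, genes called lower in these 4 alternatives numbered 529 and 1100 of 15207, 178 of 15260 and 188 of 12992. The replicate block within each day also gave 4 members, in place of 0, for mSOD1 against wtSOD1 medium on day 3, 18 for the interaction of day with mSOD1 against NTg medium and 6 for that with mSOD1 against wtSOD1 medium. The cause of these moves was not tested. Leaving out 1 experiment at a time gave 9 to 21 members called between days in mSOD1 medium (15 with all, 9 without replicate 3) and 15 to 32 in wtSOD1 medium (27 with all; 17, 15 and 17 without replicates 2, 4 and 6). Summed over the 15 members with under 50% shared 50-mers, an alternative chosen after seeing the data, the share differed between days by 0.0226 points in NTg and 0.0194 points in wtSOD1 medium, by construction a part of the whole sum. No value changed sign where it had passed. The median of the members for wtSOD1 against NTg medium on day 1, -0.005, changed sign under 5 alternatives (-0.03 with total reads to 0.03 without the 2 libraries that stood apart), and that for mSOD1 against wtSOD1 medium on day 1, 0.07, ran from 0.007 without replicate 4 to 0.09 without replicate 3. Apart from the first of these, 11 of 12 medians of comparisons and interactions kept their sign under the alternatives run. Those between days ran from 0.10 to 0.18 in NTg, -0.09 to -0.02 in mSOD1 and 0.04 to 0.16 in wtSOD1 medium, and that of mSOD1 against NTg medium on day 3 from -0.14 to -0.10. The difference in share of wtSOD1 from NTg medium on day 1 crossed 0 (-0.0259 to 0.00967 points on leaving out single experiments), as did that between days in mSOD1 medium (-0.0300 to 0.0166 points). Of 70 calls of members between days, 35 were kept under all 14 alternatives. The members' median SD within groups, 0.140 on the log2 scale, was larger than each median between media, of which -0.12 lay farthest from 0. That SD is the spread of a gene over single libraries, shifts common to an experiment included, so it is no measure of error for a difference of group means. Paired by experiment, the day 3 share in mSOD1 minus NTg medium averaged -0.0814 points with an SD of 0.0197 points over 6 pairs.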

Other observations

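Rps27l, whose CPM was higher on day 3 in every medium, was also among the members lower in mSOD1 than in NTg medium on day 3 when each experiment on each day was a block (-0.17, adjusted p = 0.0109, edgeR), at 51.5 to 73.1 CPM in mSOD1 and 61.5 to 79.0 CPM in NTg medium. Of 77 tested subunits of oxidative phosphorylation, 1 rose in mSOD1 against NTg medium on day 3, where 2.23% of all genes did. These are another group of genes with many subunits per complex. The subunit that rose was Ndufs4 of complex I (0.15 ± 0.04, SE, adjusted p = 0.0355, edgeR), and the list's median was -0.04. Growth control genes, 30 in number, had a median of 0.03 in the same comparison.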
